A study of Mus musculus with 14 samples.

Results

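H3K4me3 at the starts of 10 genes of mitochondrial fatty acid oxidation was examined, from the uptake of fatty acids into the mitochondrion to the transfer of electrons to the respiratory chain. The genes were taken by name (Cpt1a, Slc25a20, Cpt2, Acadvl, Acadl, Acadm, Hadha, Hadhb, Etfa, and Etfdh), and they are 10 of the 21440 protein-coding genes for which a start could be placed. The mark was mapped by CUT&Tag, in which an antibody guides a transposase to the marked chromatin, in LSK cells (Lin-Sca1+cKit+ stem and progenitor cells) sorted from the bone marrow (BM) of C57B6/J mice. CUT&Tag is the assay the paper names, whereas the sample titles say CUT&RUN. Of the 7 H3K4me3 libraries, 3 came from mice on a high-fat diet (HFD-LSK) and 4 from mice on the normal-fat diet that the labels call LFD (LFD-LSK), and each library has its own list of peaks. The labels name no transgene, deletion, or drug in either group, give no age, and do not state whether a library is 1 mouse or a pool, so the p-values below measure the spread between these libraries. The starts of 5 of 9 stem and progenitor marker genes had a peak in all 7 lists (Kit, Cd34, Gata2, Tal1, and Meis1), but the start of Ly6a, which encodes the Sca-1 used in the sort, had a peak in none. Of 14 marker genes of other blood, vessel, fat, and liver cells, 12 had a peak in no list, and Klf1, an erythroid factor, had one in 5 lists.

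Long-chain fatty acids enter the mitochondrial matrix as carnitine esters. Cpt1a on the outer membrane makes the ester, the carrier encoded by Slc25a20 moves it across the inner membrane, and Cpt2 returns the acyl group to coenzyme A. Acyl-CoA dehydrogenases for very long (Acadvl), long (Acadl), and medium (Acadm) chains then take the first step of each round of oxidation, the trifunctional protein built from Hadha and Hadhb carries out the remaining steps on long chains, and the electrons of the dehydrogenases pass through the electron transfer flavoprotein (Etfa and its partner subunit) and its dehydrogenase Etfdh to ubiquinone. H3K4me3 marks the promoters of active and poised genes, mostly those rich in CpG, and fatty acid oxidation is known to take part in the maintenance of hematopoietic stem cells.

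A gene was counted as called in a list when a peak lay within 1 kb of its start. A peak's fold is the ratio of its summit to the local background that the peak caller assigned to it, so it was ranked within its own list, where rank 1 is the highest fold, and ranks are given as a percent of the list's length (0% is the strongest end). The lists hold between 6921 and 13094 peaks. The fragments stacked at a summit were recovered from the fold and the p-value, and the lowest called summit of a list held between 4 and 21 fragments, or 29.8 to 101 times the average coverage of that library. A list without a call therefore shows that no peak was called, not that the mark was absent. This limit is the lowest called summit anywhere in a list, so a summit above it can still go uncalled where the local background is high. In LFD-LSK 4 the Etfdh summit, at 314 times on a local background of 21.1 times, had a −log10 p of 6.48. The members' own summits held between 8 fragments (95% exact Poisson interval 3.45 to 15.8, Cpt1a in HFD-LSK 3) and 123 fragments (102 to 147, Acadm in HFD-LSK 2), and such intervals cover counting error alone.

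The 300 bases around 5 of the starts are shown because these promoters stand at the ends of what follows, Acadl and Acadm with the strongest peaks, the start shared by Hadha and Hadhb, and Acadvl and Slc25a20 with the fewest calls. Each runs 5′ to 3′ on the strand of the named gene, from 250 bases before the start to 50 bases into the gene, as RefSeq gives it for GRCm38.p6, with every CpG in capitals. The windows are chr1:66863260-66863559 (minus strand) for Acadl, chr3:153944594-153944893 (minus) for Acadm, chr5:30154931-30155230 (minus) for Hadha, chr11:70015379-70015678 (minus) for Acadvl, and chr9:108661886-108662185 (plus) for Slc25a20.
Acadl: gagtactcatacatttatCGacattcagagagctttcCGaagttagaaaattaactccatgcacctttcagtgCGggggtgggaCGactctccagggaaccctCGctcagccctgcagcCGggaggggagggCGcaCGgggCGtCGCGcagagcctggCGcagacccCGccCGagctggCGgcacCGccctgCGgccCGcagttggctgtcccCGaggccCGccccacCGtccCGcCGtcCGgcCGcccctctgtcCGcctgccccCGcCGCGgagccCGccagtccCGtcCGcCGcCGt
Acadm: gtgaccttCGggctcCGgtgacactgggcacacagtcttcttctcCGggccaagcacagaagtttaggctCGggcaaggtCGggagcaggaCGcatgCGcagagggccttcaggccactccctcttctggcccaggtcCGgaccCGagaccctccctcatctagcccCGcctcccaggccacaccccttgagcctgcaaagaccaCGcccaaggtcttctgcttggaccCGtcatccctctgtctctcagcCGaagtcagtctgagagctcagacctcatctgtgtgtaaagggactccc
Hadha: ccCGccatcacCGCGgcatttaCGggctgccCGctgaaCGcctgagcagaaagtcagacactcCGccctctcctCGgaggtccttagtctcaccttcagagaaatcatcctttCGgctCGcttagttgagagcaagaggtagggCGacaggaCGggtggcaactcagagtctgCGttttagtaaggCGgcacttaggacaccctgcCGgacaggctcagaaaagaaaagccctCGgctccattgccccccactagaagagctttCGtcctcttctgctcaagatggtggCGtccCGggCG
Acadvl: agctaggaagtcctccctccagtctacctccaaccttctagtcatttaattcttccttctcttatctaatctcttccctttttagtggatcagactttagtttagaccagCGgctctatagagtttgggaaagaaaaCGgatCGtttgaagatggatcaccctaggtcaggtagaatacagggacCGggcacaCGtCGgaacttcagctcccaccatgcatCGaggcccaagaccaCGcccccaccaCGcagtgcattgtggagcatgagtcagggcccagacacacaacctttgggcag
Slc25a20: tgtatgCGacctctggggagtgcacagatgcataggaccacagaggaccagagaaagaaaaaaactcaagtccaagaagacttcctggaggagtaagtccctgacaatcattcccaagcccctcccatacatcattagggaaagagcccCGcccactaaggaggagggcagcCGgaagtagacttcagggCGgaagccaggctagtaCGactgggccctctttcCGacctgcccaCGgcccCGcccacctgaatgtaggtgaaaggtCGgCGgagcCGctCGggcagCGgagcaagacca
Acadl held 34 CpG in these 300 bases, more than the other members, and Acadvl held 9, the fewest. Between them stood Slc25a20 and Acadm with 13 each, Cpt2 and Etfdh with 17 each, Hadha with 20, Etfa with 21, Cpt1a with 22, and Hadhb with 24. The median over all 21263 coding promoter windows was 13 CpG, and it was 24 for starts called in all 7 lists, 19 for starts called in 1 to 6 lists, and 4 for starts called in none. The order of CpG counts was therefore not the order of the peaks, since Acadm, with the strongest peak of the members in the median over lists, and Slc25a20, with 1 call, held the same number. On either strand, the GC box letters GGGCGG stood in 7 of the 10 windows against 46.2% of all windows, CCAAT in 3 (Cpt1a, Etfa, and Etfdh) against 38.2%, the nuclear receptor core AGGTCA in 3 (Cpt1a, Acadvl, and Acadm) against 14.7%, and the ETS core CCGGAA in 3 (Slc25a20, Cpt2, and Etfdh) against 18.7%. CACGTG and TATAAA stood in 0 of the 10 windows, against 7.84% and 12.6% of all windows. These counts describe letters in a window, and no binding was measured.

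The 10 genes were called 59 times of the 70 possible. Of the 10, 6 were called in all 7 lists (Acadl, Acadm, Hadha, Hadhb, Etfa, and Etfdh), against 21.8% of all gene starts, and Hadha and Hadhb share 1 peak, so these are 5 distinct peaks. The other 4 were called in some lists. Cpt1a and Cpt2 each had a peak in 3 of 3 lists of HFD-LSK and 3 of 4 of LFD-LSK, Acadvl in 3 of 3 and 1 of 4, and Slc25a20 in 1 of 3 and 0 of 4. All 4 were called in a larger share of the HFD-LSK lists, but so were 83.1% of all gene starts called in 1 to 6 lists, so this is close to the background. A peak in 3 of 3 HFD-LSK lists with 0 of 4 in LFD-LSK was found at 0 members, against 0.285% of the starts called in at least 1 list. The largest imbalance, at Acadvl, did not pass the test (Fisher's exact test, two-sided, p = 0.143, adjusted p = 1 over all 11564 starts called in at least 1 list).
The number of members called was highest in the longest list and lowest in the shortest. It was 9, 10, and 9 in HFD-LSK 1, 2, and 3 and 8, 8, 8, and 7 in LFD-LSK 1, 2, 3, and 4, while the share of all gene starts called ran from 30.6% in LFD-LSK 4 to 51.8% in HFD-LSK 2. With every list cut to the 6921 strongest peaks, 2 members were called in every list instead of 6. The share of all gene starts at that length was not computed.

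**Figure D1:**
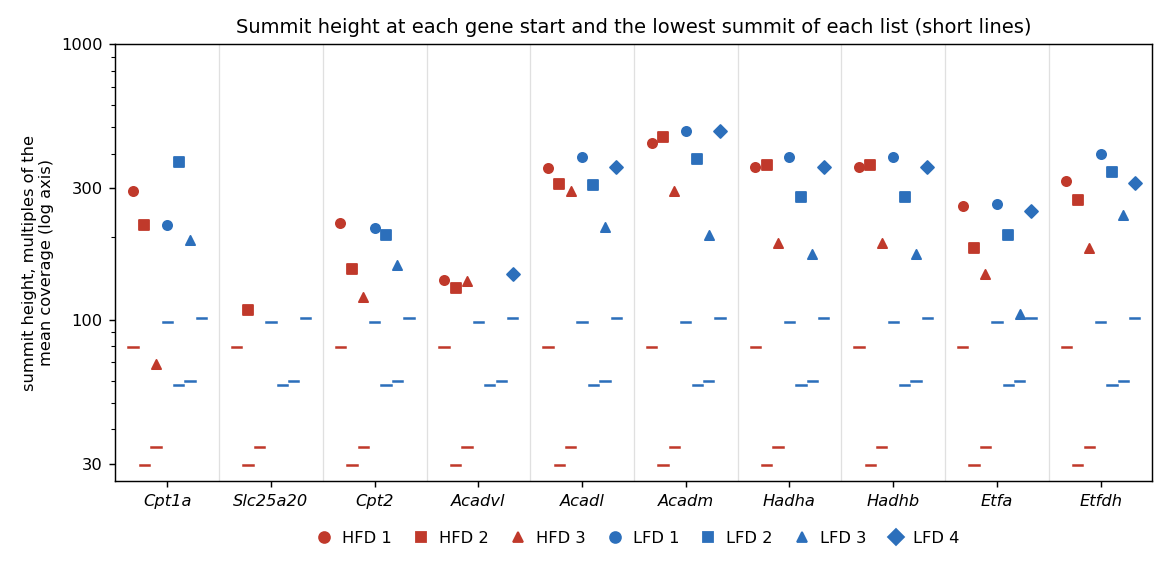
Summit height of the peak at each gene start (log axis, in multiples of the library's average coverage) for the 3 HFD-LSK (red) and 4 LFD-LSK (blue) libraries, with the lowest called summit of each list as a short line of the same color. Acadm, Acadl, Hadha, Hadhb, and Etfdh stand well above every limit, whereas Slc25a20 has a single point at 108 and Acadvl has points between 131 and 146 in the 4 lists that called it.

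Of the 3 genes of mitochondrial entry, none was called in all 7 lists. Cpt1a, the regulated step of the pathway (chromosome 19, plus strand, start at 3323301), ranked at 21.6%, 31.9%, and 55.5% of the list in HFD-LSK 1, 2, and 3 and at 49.5%, 3.13%, and 17.7% in LFD-LSK 1, 2, and 3, with no peak in LFD-LSK 4. The strongest and the missing call were thus both in LFD-LSK, and the diets overlapped. Its peaks were wide, at 2589, 2302, and 1163 bp in HFD-LSK and 1804, 2720, and 4285 bp in the LFD-LSK lists that called it. In HFD-LSK 3 and LFD-LSK 1 the mark around the start was called as 2 separate peaks, and in HFD-LSK 3 the one with the higher fold (6.88 against 4.03) had its summit 900 bp upstream of the start with 8 fragments, while the other had 21 fragments 175 bp downstream. The RefSeq record of Cpt1a begins 975 bp upstream of the start used here. A further peak beyond the window lay inside the gene in HFD-LSK 2, HFD-LSK 3, and LFD-LSK 1, with summits 1859, 2148, and 1776 bp from the start. The mark at Cpt1a thus spread over a longer stretch than at the other members, with a median peak width of 2445.5 bp.
Slc25a20, the carnitine carrier (chromosome 9, plus strand, start at 108662136), was called in HFD-LSK 2, the longest list, at 58.6% of the list, with 29 fragments at the summit and a width of 964 bp. That summit, 108 times the average coverage, lies above the limits of all 7 lists, of which the highest was 101 in LFD-LSK 4. The local background in the lists without a call is not known, so this does not show that such a summit would have been called there. No diet comparison can be drawn from a single call.
Cpt2 (chromosome 4, minus strand, start at 107923589) ranked at 37.2%, 39.6%, and 11.9% in HFD-LSK 1, 2, and 3 and at 52.2%, 31.0%, and 37.4% in LFD-LSK 1, 2, and 3. Both diets gave middle ranks with overlapping ranges, and LFD-LSK 4 had no call. Its summits of 121 to 224 times the average coverage lay above the limit of 101 in LFD-LSK 4. Since the local background at Cpt2 in that list is not known, such summits could still have gone uncalled there.

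The 3 acyl-CoA dehydrogenases held both the strongest and the weakest peaks of the set. Acadm (chromosome 3, minus strand, start at 153944643) ranked at 1.98%, 10.9%, and 44.5% in HFD-LSK 1, 2, and 3 and at 1.20%, 1.77%, 16.2%, and 0.722% in LFD-LSK 1 to 4. In LFD-LSK 4 its rank was 50 of 6921 peaks. The 3 values of HFD-LSK 2 and 3 and LFD-LSK 3 were farther from the top, and the diets overlapped.
Acadl (chromosome 1, minus strand, start at 66863309) ranked at 6.98%, 7.39%, and 17.0% in HFD-LSK and at 4.73%, 7.06%, 14.4%, and 8.06% in LFD-LSK 1 to 4. It varied the least of the members called in all 7 lists, with a range of 12.3 percentage points. The medians of its HFD-LSK and LFD-LSK ranks were 7.39% and 7.56%.
Acadvl (chromosome 11, minus strand, start at 70015428) ranked at 77.3%, 56.2%, and 81.4% in HFD-LSK and at 89.1% in LFD-LSK 4, its single LFD-LSK call. All 4 values were in the weaker part of their lists. Its fragments at the summit were 28, 35, and 16 in HFD-LSK 1, 2, and 3 and 13 in LFD-LSK 4. Relative to average coverage these were 139, 131, 138, and 146, a narrow span, and LFD-LSK 1, 2, and 3, with limits of 98.3, 58.1, and 59.98, showed no peak.

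Hadha and Hadhb, the alpha and beta subunits of the trifunctional protein, are transcribed away from each other on chromosome 5 from starts at 30154980 and 30155253. The starts lie 273 bp apart and their 300-base windows share 228 bases, so 1 peak served both genes in every list and their values are identical. That peak ranked at 6.43%, 1.24%, and 80.5% in HFD-LSK 1, 2, and 3 and at 7.08%, 14.0%, 27.5%, and 7.63% in LFD-LSK 1 to 4. HFD-LSK 2 gave the strongest value, with a fold of 37.9, and HFD-LSK 3 the weakest by far, with a fold of 5.27. The HFD-LSK lists thus enclosed all 4 LFD-LSK lists, and the SD of the ranks was 5355 places over the 3 HFD-LSK lists and 1097 places over the 4 LFD-LSK lists.

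The electron transfer genes were called in all lists with middle and varied ranks. Etfa (chromosome 9, minus strand, start at 55512243) ranked at 25.3%, 81.7%, and 77.7% in HFD-LSK and at 34.6%, 30.4%, 72.0%, and 38.1% in LFD-LSK 1 to 4. It was in the weaker part of 2 of 3 HFD-LSK lists and of 1 of 4 LFD-LSK lists, and the strongest value of all was that of HFD-LSK 1.
Etfdh (chromosome 3, minus strand, start at 79628767) ranked at 69.0%, 64.0%, and 9.56% in HFD-LSK and at 3.91%, 23.7%, 6.24%, and 56.6% in LFD-LSK 1 to 4. HFD-LSK 3, which was weak at Hadha and Etfa, was the strongest HFD-LSK list here. The start of 4930579G24Rik, a gene transcribed in the other direction, lies 312 bp from that of Etfdh, so the peak cannot be assigned to one of the 2 genes.

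In the median over the lists that called them, the members ran from Acadm at 1.98%, Acadl at 7.39%, and Hadha and Hadhb at 7.63% through Etfdh at 23.7%, Cpt1a at 26.7%, Cpt2 at 37.3%, and Etfa at 38.1% to Slc25a20 at 58.6% and Acadvl at 79.3%. For all starts called in all 7 lists the median was 28.7%, with quartiles of 15.4% and 44.7%. Neighbors in this order did not keep it in every list. Acadm ranked nearer the top than Acadl in 4 of 7 lists, Acadl nearer than Hadha and Hadhb in 4 of 7, Hadha nearer than Etfdh in 4 of 7, and Etfdh nearer than Cpt1a in 3 of 6, whereas Cpt1a ranked nearer than Cpt2 in 5 of 6. Cpt2 ranked nearer than Etfa in 3 of 6. The medians of Slc25a20 and Acadvl come from different lists, and in the 1 list that holds both, HFD-LSK 2, Acadvl (56.2%) ranked nearer than Slc25a20 (58.6%), and both ranked nearer than Etfa (81.7%).

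**Figure D2:**
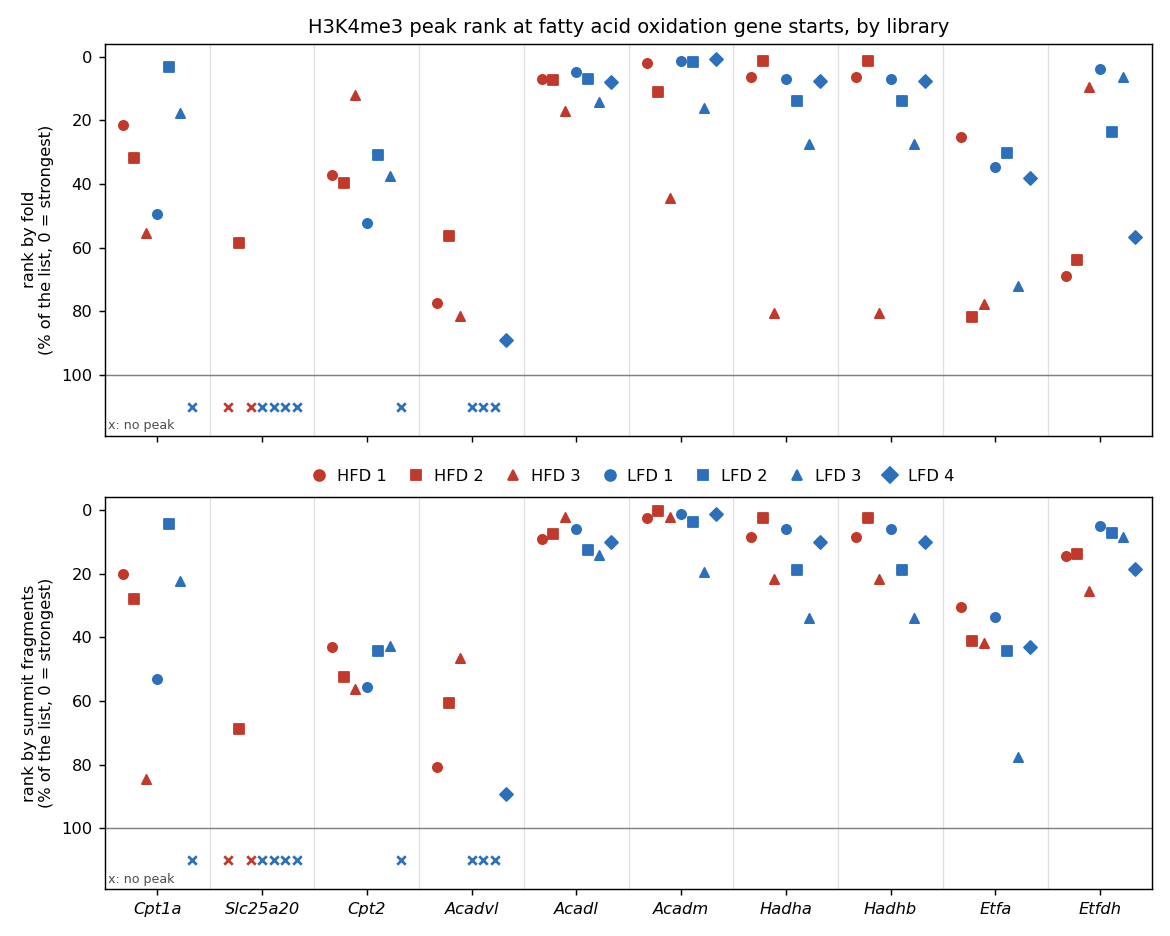
Rank of the peak at each gene start as a percent of its list (0% at the top is the strongest peak), by fold (upper panel) and by the fragments at the summit (lower panel), for 3 HFD-LSK (red) and 4 LFD-LSK (blue) libraries, with crosses for lists without a peak. By fold, the Hadha and Hadhb peak in HFD-LSK 3 stands at 80.5%, apart from the other 6 libraries at 1.24% to 27.5%, and in the lower panel the same library stands at 21.8%.

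No member separated the diets by its fold rank. Of the 6 members with a peak in every list, 0 stood nearer the top throughout HFD-LSK, against 1.39% of the starts called in all 7 lists, and 0 stood farther from it throughout HFD-LSK, against 4.32%. For the test, a list without a call was given the middle of the places between its end and the 14659 regions called in any list. In absolute places, the difference in mean rank was largest for Etfa and Etfdh, which lay 3476.5 and 3449.5 places farther from the top in HFD-LSK, but this lay within the variation among libraries (exact permutation test over all 35 assignments of 3 libraries to HFD, two-sided, p = 0.257 and p = 0.171, where the smallest p the design allows is 0.0286). Etfa had a mean rank of 7446 ± 4491 (SD, n = 3) in the HFD-LSK lists, compared with 3970 ± 2340 (SD, n = 4) in the LFD-LSK lists. In percent of the list, Etfa lay 17.8 and Etfdh 24.9 percentage points farther in HFD-LSK (exact permutation test, two-sided, p = 0.343 and p = 0.257). On that scale the members with a missing call lay nearer the top in HFD-LSK. The differences were -47.8 for Acadvl, -39.5 for Cpt2, -36.2 for Slc25a20, and -20.2 for Cpt1a (exact permutation test, two-sided, p = 0.0571, p = 0.371, p = 0.171, and p = 0.886). They include filled places, which lie beyond the end of the list. Acadvl lay 2518 places nearer the top in HFD-LSK (exact permutation test, two-sided, p = 0.229), and this rests on the 3 LFD-LSK lists without a call. Single libraries decided some of these values. Without HFD-LSK 3, 1 member (Etfdh) ranked farther from the top in both remaining HFD-LSK lists than in any LFD-LSK list, and the Hadha and Hadhb difference turned from 2120 places farther to -970, that is, nearer the top. Without HFD-LSK 1, 1 member (Etfa) ranked farther in both. Without LFD-LSK 4, 8 members were called in every list, Cpt1a and Cpt2 being added. The matching shares of all starts were not computed for these counts with a library left out. The means of 3 members (Slc25a20, Cpt2, and Acadvl) were nearer the top in HFD-LSK and those of the other 7 farther by fold. The means of these 3 and of Cpt1a include places filled for lists without a call. Slc25a20 had a single call, so its direction is not a diet comparison. The Cpt2 difference was -2110 places, and -332 without LFD-LSK 4, which did not call it. By summit fragments the means of Acadl (-297 places), Acadm (-469), Hadha and Hadhb (-414), and Etfa (-150) were nearer as well. This leaves Cpt1a and Etfdh farther. For Cpt1a, the direction by fragments depends on the peak chosen in HFD-LSK 3, where the one with 8 fragments was used and not the one with 21. Over all 11564 starts called in at least 1 list, 290 had an unadjusted p below 0.05 and 0 passed after Benjamini-Hochberg adjustment, with a lowest adjusted p of 0.975 (exact permutation test). With a smallest p of 0.0286 for any single start (exact permutation test), this adjustment could be passed only if a large share of all starts reached it, so an adjusted p says little about a single gene here. The fold ranks thus show no diet difference at these 10 starts that exceeds the spread between libraries, and with 3 against 4 libraries a moderate one could not have been detected.

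At 4 of the peaks, those of Acadm, Hadha and Hadhb, Etfa, and Etfdh, high local background stood beside ranks far from the top. The fold is divided by this background, so the 2 values are linked by definition and are not independent observations. The background at a member's summit was above 10 times the average coverage at 6 of the 9 members called in HFD-LSK 3 (Hadha and Hadhb sharing 1 peak) and at 0 to 2 members in each other library. The same held for other genes, since 50.9% of the starts called in all 7 lists had a local background above 10 times in HFD-LSK 3, compared with 5.43% to 25.7% in the other libraries. At the Hadha and Hadhb peak it was 28.4 times in HFD-LSK 3 and at most 3.98 times in the other 6 libraries. At Acadm it was 29.4 times in HFD-LSK 3, 8.86 times in HFD-LSK 2, and at most 2.65 times elsewhere. Etfa had 17.7 and 18.9 times in HFD-LSK 2 and 3, its lowest-ranked HFD-LSK lists. Etfdh had 25.03, 17.7, 10.5, and 21.1 times in HFD-LSK 1, HFD-LSK 2, LFD-LSK 2, and LFD-LSK 4, the 4 lists in which it ranked farthest from the top. Other values did not follow this. Etfa ranked at 72.0% in LFD-LSK 3 with a background of 1.00 times, and Acadvl at 77.3%, 56.2%, and 89.1% in HFD-LSK 1, HFD-LSK 2, and LFD-LSK 4 with 1.41, 2.52, and 1.00 times. Slc25a20 (58.6% in HFD-LSK 2), Cpt1a (55.5% in HFD-LSK 3), and Cpt2 (52.2% in LFD-LSK 1) had 1.01, 1.96, and 1.00 times. Acadl in HFD-LSK 3 had 17.2 times and still ranked at 17.0%. The part of the background in the diet comparison was not tested.

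**Figure D3:**
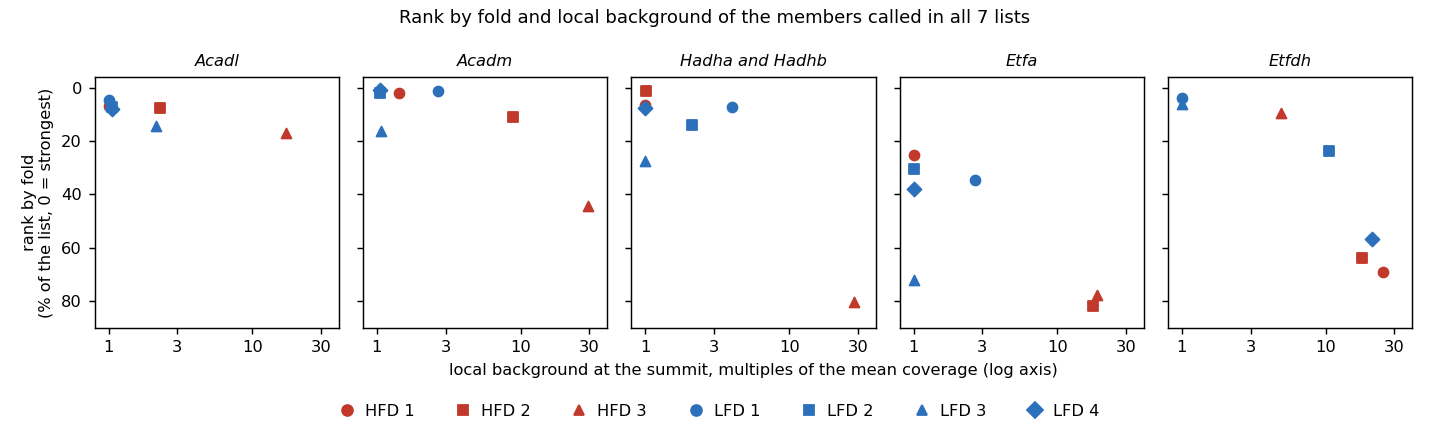
Rank by fold (percent of the list, 0% at the top is the strongest) against the local background at the summit (log axis, multiples of the average coverage) for the members called in all 7 lists, with HFD-LSK in red and LFD-LSK in blue. For Hadha and Hadhb, HFD-LSK 3 stands alone at 28.4 times and 80.5%, and for Etfdh the 4 libraries above 10 times hold the 4 ranks farthest from the top.

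Ranked by the fragments at the summit instead, an order chosen after these values were seen, places over the 7 lists spanned a narrower range than by fold for the 6 members called in every list, though barely for Acadl (12.1 instead of 12.3 percentage points). The range was 31.3 instead of 79.3 percentage points for Hadha and Hadhb and 20.3 instead of 65.1 for Etfdh. It was wider for Acadvl, at 42.8 instead of 32.9, and for Cpt1a, at 80.1 instead of 52.4. The Cpt1a value rests on the peak chosen by fold in HFD-LSK 3, whose 8 fragments stood at 84.6%. The other Cpt1a peak of that list held 21 fragments, a number that stood at 25.3% there for Etfdh. In the other lists that called Cpt1a it stood at 4.52% to 52.9%. Over all starts called in all 7 lists the median range was 37.9 instead of 58.5 percentage points. By fragments, Acadm stood within the first 2.38% of all 3 HFD-LSK lists and at 1.09%, 3.75%, 19.4%, and 1.12% in LFD-LSK 1 to 4. Etfdh stood at 14.4%, 13.7%, and 25.3% in HFD-LSK and at 5.08%, 7.23%, 8.47%, and 18.4% in LFD-LSK 1 to 4. In absolute places it was farther from the top in every HFD-LSK list, by 1228 places on average, which is the smallest p the design allows (exact permutation test, two-sided, p = 0.0286), while in percent of the list the diets overlapped. As 1 such member of 6, it stands against 3.72% of the starts called in all 7 lists, 0 members stood nearer the top throughout HFD-LSK, against 1.99%, and adjusted over all 11564 starts its p was 1.

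The widths of the members' peaks did not separate the diets. Of the 6 members called in all 7 lists, 0 were wider in every HFD-LSK list, against 6.78% of such starts, and 0 were narrower, against 0%. Etfa showed the largest difference, with widths of 842, 828, and 1202 bp in HFD-LSK and 461, 996, 729, and 540 bp in LFD-LSK 1 to 4. Its HFD-LSK peaks were wider than those of LFD-LSK 1, 3, and 4, and LFD-LSK 2 lay among them. The difference in means was 276 bp (exact permutation test, two-sided, p = 0.2, adjusted p = 0.724 over all starts called in all 7 lists), and it was 153.5 bp without HFD-LSK 3. Without LFD-LSK 2, Etfa would be the 1 member wider in every HFD-LSK list. The Hadha and Hadhb peak was 1248, 1949, and 1405 bp wide in HFD-LSK and 1215, 1967, 1448, and 1091 bp in LFD-LSK, nearly the same range. The Etfdh peak measured 352 bp in LFD-LSK 4 and 1117 to 2033 bp in the other 6 libraries. Acadvl had the narrowest peaks, at 287 to 590 bp, and the median width of starts called in all 7 lists was 1085 bp, with quartiles of 843 and 1400 bp.
The position of the peaks followed the layout of the starts. At the divergent starts, the median share of the peak lying downstream of the start was 29.7% for Hadha, 49.8% for Hadhb, and 39.9% for Etfdh. It was 76.0% to 100% for Slc25a20, Cpt2, Acadvl, Acadl, Acadm, and Etfa, which have no other coding start within 1 kb, and 44.8% for Cpt1a, which has none either. Over the genes with a single placed start and a peak in all 7 lists, the median was 42.4% for the 806 with a divergent start within 1 kb and 71.1% for the 2990 without. The Acadvl peak lay wholly downstream of the start in 3 of its 4 lists and began 25 bp before it in HFD-LSK 2, with summits 210 to 393 bp into the gene. The nearest other start, that of Dlg4, is 1775 bp away. Cpt1a was the exception among the single starts, with a median reach of 1497 bp upstream and 1111 bp downstream.

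**Figure D4:**
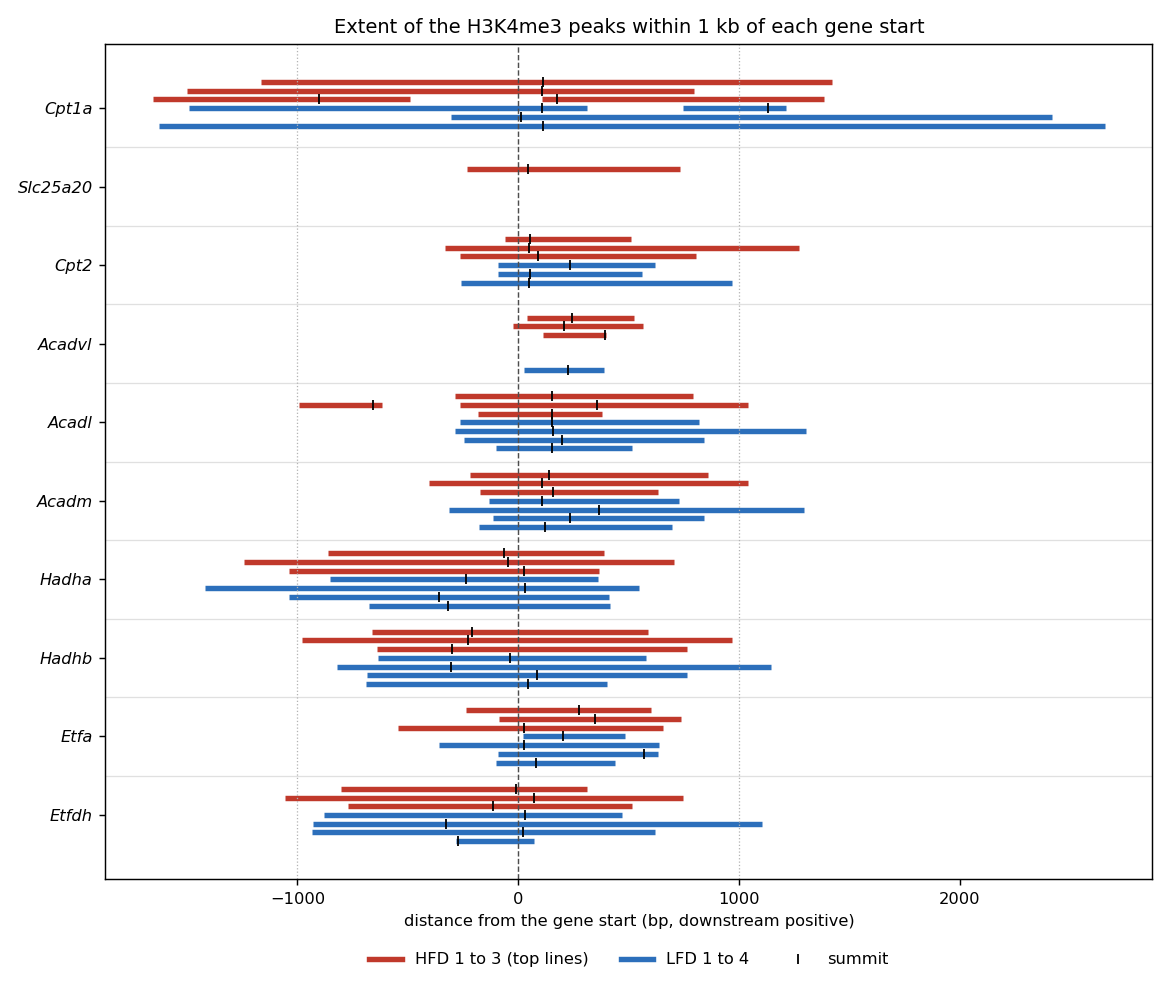
Extent of every peak within 1 kb of each gene start (dotted lines), in bp from the start with downstream to the right, for 3 HFD-LSK (red, upper lines) and 4 LFD-LSK (blue) libraries, with summits as black ticks. Peaks at Acadl, Acadm, Cpt2, and Etfa extend mainly downstream, those at Hadha, Hadhb, and Etfdh lie on both sides, and Acadvl peaks begin between 25 bp before and 113 bp after the start.

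The wider pathway was compared through gene lists chosen with results of these data known. Of 65 further genes of uptake, activation, carnitine handling, mitochondrial and peroxisomal oxidation, regulation, and ketone bodies, 25 were called in all 7 lists, 26 in 1 to 6, and 14 in none. The share called in all 7 lists was 42.9% of the 14 other mitochondrial oxidation enzymes, 40% of 15 peroxisomal genes, and 40% of 70 respiratory chain subunits, beside 60% of the 10 members. As a share of all possible calls, these lists had 74.5%, 66.7%, and 72.2%, and the members 84.3%. The lists overlap in function and were not tested against each other.
The genes called in no list include tissue-restricted forms of steps that the members carry out, namely Cpt1b and Cpt1c, the muscle and brain forms of Cpt1a. They also include the transporters and binding proteins Cd36, Slc27a5, Fabp3, and Fabp4, the synthetase Acsl6, Acat1, and the peroxisomal Acox2 and Acaa1b. Of the genes listed as regulators, the coactivator Ppargc1a, Acaca, and Acacb were called in no list. A gene that starts elsewhere than at the RefSeq start would also be counted here. Among the other mitochondrial enzymes, the best mean ranks were those of Hadh (short-chain hydroxyacyl-CoA dehydrogenase), at a median of 20.3% of the list, and of Acaa2, the thiolase of the last step, at 9.08% in the 6 lists that called it. Echs1 was also called in 6 lists, Acad10 and Eci1 in 5, Acads in 4, Decr1 in 3, and Hsd17b10 in 2, of which Decr1 and Hsd17b10 ranked lowest. Etfb, the partner of Etfa, named here after its values were seen, was called in all 7 lists at a median of 40.2%, next to 38.1% for Etfa.
Among peroxisomal genes, Acaa1a stood at 11.5% and Crot, which makes carnitine esters of medium chains, at 17.0%, while Abcd3, Acox3, and Amacr were called in 6 lists, Abcd2, Ehhadh, and Decr2 in 3, and Scp2 in 1, with Scp2 and Ehhadh lowest. Of the uptake and activation genes, Acsl3 stood at 24.2% and Acsl1 at 34.3%, both of which join fatty acids to coenzyme A, whereas Slc27a4 was called in 6 lists, Slc27a3, Slc27a6, and Fabp5 in 5, and Slc27a2 in 3, with Slc27a2 and Slc27a3 lowest. In the carnitine system, Crat stood at 28.4% and the carnitine importer Slc22a5 at 43.1%.
Of the regulators, Ppargc1b stood at 45.9% and Esrra at 47.3%. Pparg was called in 6 lists, Ppara and Rxra in 5, Mlycd in 4, and Pdk4 in 2, and Ppara, the nuclear receptor that drives these genes in liver, and Pdk4 ranked lowest, at 85.0% and 86.4%. Oxct1, which uses ketone bodies, stood at 20.7%, and Bdh1 was called in 3 lists.
Of the 25 further genes called in all 7 lists, 2 had HFD-LSK ranks that did not overlap the LFD-LSK ranks, both farther from the top in HFD-LSK, against 4.32% farther and 1.39% nearer among all such starts. Crat, which transfers short acyl groups to carnitine, lay 3532 places farther, and Ppargc1b, a coactivator of oxidative metabolism, 3203 places farther (p = 0.0286 for each, two-sided exact permutation test, adjusted p = 0.975 over all starts). These are absolute places in lists of unequal length. Whether the diets also separate in percent of the list was not tested for these 2 genes.

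**Figure D5:**
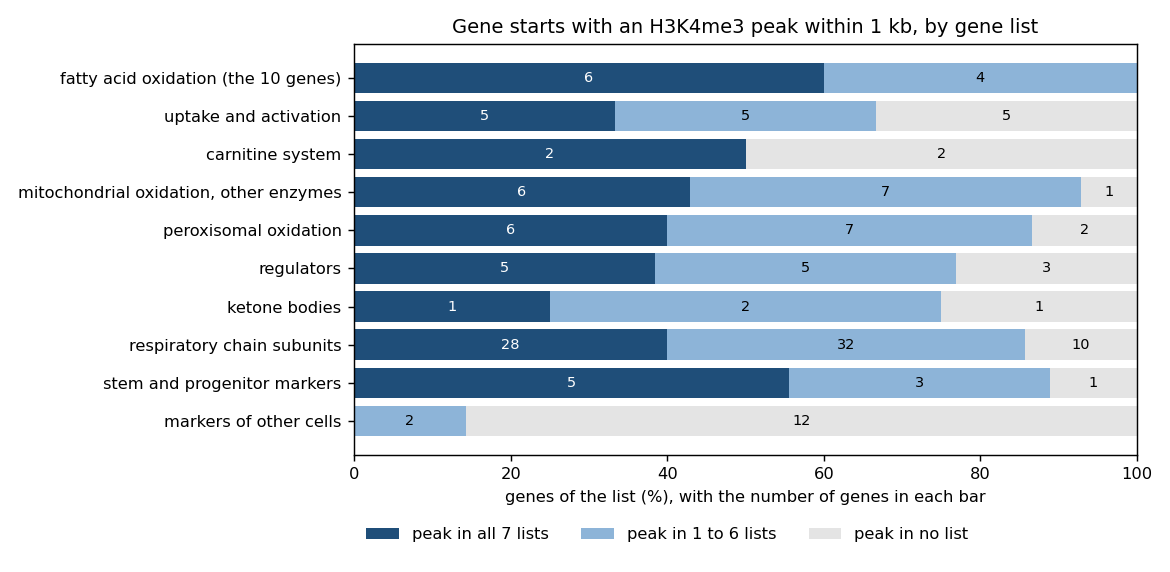
Share of the genes of each list (x axis, percent) whose start had a peak within 1 kb in all 7 lists (dark), in 1 to 6 lists (light blue), or in no list (gray), with the number of genes in each bar. All 10 members were called in at least 1 list and 6 of them in all 7, compared with 6 of 14 other mitochondrial oxidation enzymes and 28 of 70 respiratory chain subunits.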

How the data were processed

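The peak lists of the H3K4me3 libraries of LSK cells (3 HFD, 4 LFD), 1 list a library, were the data used. The 7 IgG libraries were not analyzed here. The submitters' processing notes name Trim Galore, Bowtie2, Picard, MACS2, bedtools, HOMER, and featureCounts and the build GRCm38, whereas the paper's methods name SEACR and GRCm39. The lists are MACS2 narrow peaks. Each deposited peak has its position, a score equal to 10 times its −log10 p, a fold (the authors' ratio of summit height over local background), and the −log10 of its p-value and q-value. The lowest −log10 p was 5.01. Whether IgG reads entered the local background of these lists is not given in the sources used here. Of the peaks, 78.0% to 90.5% lay within 1 kb of a gene start of GRCm38, against 7.52% to 8.32% for GRCm39, so GRCm38 was used.

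Gene starts came from RefSeq (GRCm38.p6) for 17492 genes and, for 3948 more, from the RefSeq gene ends with the strand of GENCODE, in all 98.0% of 21887 coding genes. All 10 members matched by symbol. The peak with the highest fold among those overlapping 1 kb around a start was taken, also for the ranks by summit fragments. Calls were compared by Fisher's exact test, and ranks and widths by the exact permutation test over the 35 assignments of the 7 libraries, two-sided, with Benjamini-Hochberg adjustment over all starts. Widths were tested only for starts called in all 7 lists. Summit fragments and local background were recovered by inverting the MACS2 formulas (fold with a pseudocount of 1, Poisson p), and 100% of peaks were solved within a relative error of 5e-05. The average coverage is the lowest background of a list. The peak files give no read totals, so sequencing depth is known only through these values. Paper methods state that duplicates were removed from control libraries alone.

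All 10 members, genes starting within 1 kb of one, and, of each wider list, genes called in none or some of the lists, with diets that do not overlap, or with the 2 highest or 2 lowest mean ranks are named. A few genes of the wider lists are counted but not reported by name here. The members and lists were chosen with earlier results of these data known. Alternatives were a −log10 q of at least 5, equal list lengths, other windows, peaks covering the start, other rankings and widths, leaving out each library, and a replicate block. Ranks by summit fragments and a common calling limit were added after seeing the data. The steps were tested on simulated lists. Python 3.11.15 with numpy 2.4.6, pandas 2.3.3, scipy 1.17.1, and matplotlib 3.10.9 was used.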

Additional observations from a re-analysis of the deposited data

Results flagged for a closer look

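Among 27 values of the 4 LFD-LSK libraries (list lengths, covered length, calling limits, and the ranks, widths, and summits of the members called in all of them), 3 had 1 library far from the other 3. The rule used flags about 1 in 20 groups of independent normal values by chance. These values are not independent, since Hadha and Hadhb share a peak and several measures come from each peak. That rate is therefore no yardstick for the 3. The fold rank of Acadm was 1676 in LFD-LSK 3, compared with 50 to 187 in the other LFD-LSK libraries. The Acadm peak was 1612 bp wide in LFD-LSK 2, compared with 862 to 959 bp in the others. The fold rank of Etfa was 7453 in LFD-LSK 3, compared with 2576.5 to 3211.5 in the others.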

How the results depend on the processing

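The 20 alternatives gave 357 values. Of these, 314 were counts that stayed equal or close, or differences that kept their direction and their side of the threshold. A further 35 reversed, 1 passed the threshold, and 7, all counts, moved. With a library left out or the replicate block, no p below 0.05 could be reached, so a difference there could change only its direction. The identical values of Hadha and Hadhb are both counted, so the 314 are not independent checks. With as many peaks from each list as the shortest holds (6921), 2 members were called in every list instead of 6. The share of all gene starts at that length was not computed. Ranked by summit fragments, 1 member (Etfdh) was farther from the top in every HFD-LSK list instead of 0, and its difference of 1228 places reached the smallest p (exact permutation test, p = 0.0286).

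Ranks reversed for Cpt1a within 3 kb (-665 places) and in percent of the list (-20.2), for Acadvl at equal list lengths (662), for Acadl by −log10 p (-154), and by summit fragments for Acadl (-297), Acadm (-469), Hadha and Hadhb (-414), and Etfa (-150). Relative to the list's median width, the width differences reversed for Acadm (-0.254), Hadha and Hadhb (-0.251), and Etfdh (-0.137). None of these passed the test, and the cause was not tested.

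Leaving out 1 library gave 6 to 8 members called in every list, 0 to 1 farther from the top in every HFD-LSK list (1 without HFD-LSK 1 or 3), and 0 to 1 wider (1 without LFD-LSK 2). The matching shares of all starts were not computed. Rank differences then ran from -1163 to 2319 places for Cpt1a, -970 to 3771.5 for Hadha and Hadhb, 306.75 to 2878 for Acadm, 18.9 to 718 for Acadl, 1848 to 6038 for Etfa, 1903 to 5521 for Etfdh, -1675 to -471 for Slc25a20, -2930 to -332 for Cpt2, and -3974 to -1815 for Acadvl. The Slc25a20 range holds no value without HFD-LSK 2, its only call. Its direction therefore rests on that list and on filled places. Width differences ran from -274 to 96.5 bp for Acadl, -135 to 211 for Acadm, -104 to 283 for Hadha and Hadhb, 153.5 to 381 for Etfa, and -243 to 317 for Etfdh. With 6 libraries no p below 0.05 can be reached.

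The labels give no sign that the replicate numbers pair the libraries, and the deviations of same-numbered libraries from their group means correlated at 0.0770, 0.0174, and -0.00544 over 4677 starts, so the numbers were not treated as pairs. These correlations bear on same-numbered libraries alone. The paper states that diets were compared within cohorts, that a cohort was added for LSK cells, and that its peak analysis took batch and pairing into account. Which libraries share a cohort or batch was not known here, so neither entered the tests. With the replicate block (3 pairs, smallest p 0.25), 3 members were farther from the top and 2 narrower in every pair. The shares of all starts that did so were not computed, so these counts cannot be read as a result about the members. Width differences reversed for Acadm (-33.7 bp), Hadha and Hadhb (-9.33 bp), and Etfdh (-243 bp). Depth limits the calls, since a summit under a list's limit cannot be seen.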
